A study of Mus musculus with 16 samples.

Results

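The comparison was that of Perk knockout liver with wild-type liver in unfractionated RNA, without drug. It rested on 4 of the 16 arrays of the series, 2 of each genotype, chosen by their sample titles, and on all 12148 genes that had a probe set with 1 gene symbol and passed a filter on dim probe sets. The knockout mice carried Perk-/- in liver through Cre under the albumin promoter (Alb/Cre), and the controls were wild-type littermates (Perk+/+), all 3 to 6 months old. All 4 arrays came from livers through which buffer with 0.1 mM CaCl2 had flowed once, without the drug tBuHQ, for which the labels name both 2,4- and 2,5-di-tert-butylhydroquinone. Each array held RNA pooled from 2 livers, taken from the detergent-containing supernatant of the homogenate before any gradient. The pooling makes each value a mean over animals, and the labels do not say whether the unfractionated and polysome arrays share livers. Polysome RNA of the same genotypes without drug (4 arrays) and unfractionated RNA of livers perfused with tBuHQ, a blocker of calcium uptake by the endoplasmic reticulum (4 arrays), were set beside the comparison. The remaining 4 arrays, polysome RNA with tBuHQ, entered only the estimate of spread.

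PERK, encoded by Eif2ak3, is a kinase in the membrane of the endoplasmic reticulum (ER). When unfolded proteins gather there it phosphorylates eIF2 alpha, which slows translation in general while raising that of ATF4, a transcription factor for amino acid, redox and stress genes, among them Ddit3 (CHOP). IRE1 with XBP1 and ATF6 form the other branches of this response. In liver, whose hepatocytes secrete most plasma proteins and handle lipids and glucose, PERK is known as a brake on protein synthesis under ER stress, and a perfused liver has also been through surgery and a change of oxygen and buffer.

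Values are the deposited array signals, on a linear scale on which every array had a trimmed mean of 150. The highest signal of a probe set for an RNA that was not added, 15.1, was taken as the level below which a signal says nothing. Both untreated wild-type arrays stood apart from most other unfractionated arrays, together with the first knockout array with tBuHQ. These 3 correlated at 0.973 to 0.975 with each other across probe sets and at 0.948 to 0.964 with the other 5, which correlated at 0.961 to 0.971 among themselves. Their 75th percentile signal was 105 to 114, against 83.7 to 88.9 on the other 5. The first untreated knockout array had the lowest signal of the 16 for the dap spike-in RNA, 2118 against 2701 to 6375 on the others. It also carried acinar markers of the pancreas, with Cpa1, a digestive carboxypeptidase, at 283 there, 3.16 on the second knockout array and 2.85 and 1.28 on the wild-type arrays. The z scores of the authors' deposited table raised a doubt about the labels. Its 16 columns each equalled, after scaling, an array with the other treatment in its title (largest residual 0.00368 on the log10 scale), with the same genotype and fraction. By those column names the comparison described here would be between livers perfused with tBuHQ. The same table also holds z ratios headed by letters. Ratio C-A was -4.16 for Il6st and 5.46 for Dbp, the signs that the sample titles give without drug. Ratio D-B was 1.38 and -3.65, the signs that the titles give with tBuHQ. What the letters stand for was not tested. The sample titles were followed. The genotype of each array is the same in either reading, but the comparison without drug is not. By the column names it kept the sign of 159 of the 835 called genes that the table holds.

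**Figure D1:**
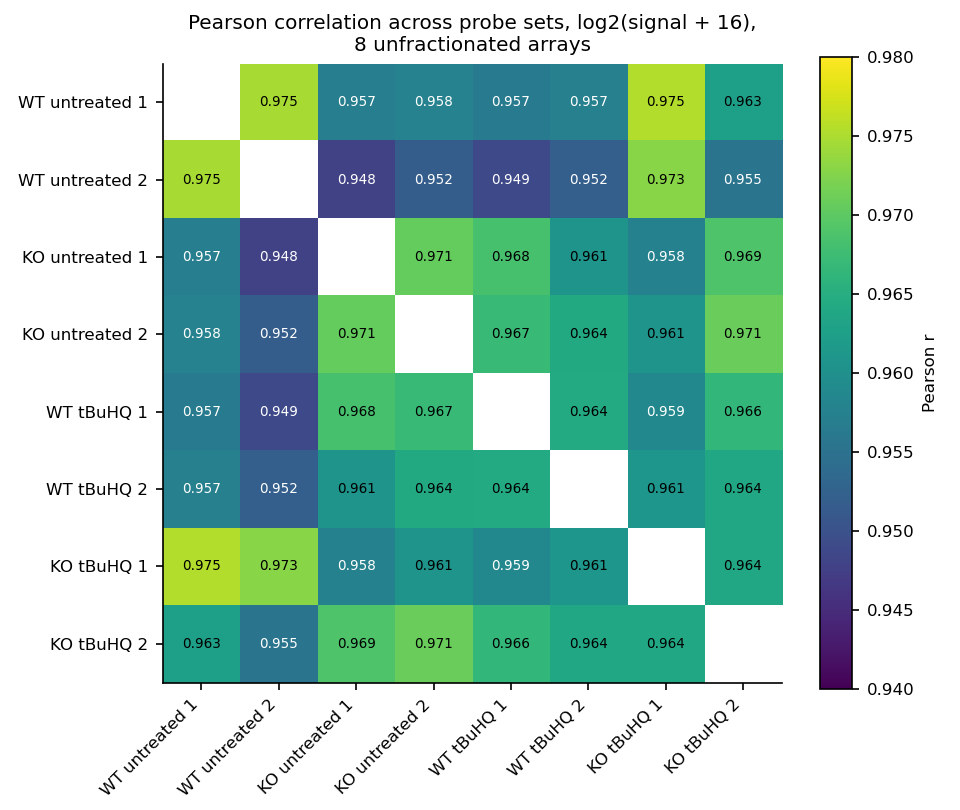
Pearson correlation across all probe sets of log2(signal + 16) between the 8 unfractionated arrays, with each square giving the r of a pair and the colour scale running from 0.94 to 0.98. The 2 wild-type arrays without drug and the first knockout array with it have r of 0.973 to 0.975 with each other and of 0.948 to 0.964 with the other 5.

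The deleted gene was examined first. The Eif2ak3 probe set read 88.6 and 118 on the wild-type arrays and 43.7 and 36.7 on the knockout arrays. Both knockout values lay below both wild-type values, and the difference of -1.08 ± 0.35 (log2, SE, 2 against 2 arrays) did not pass limma's test at an adjusted p of 0.0742. It passed at an adjusted p of 0.030 when only the 8 unfractionated arrays were fitted and at 0.0154 with the 4 arrays alone. With tBuHQ the values were 131 and 129.8 in wild-type and 49.2 and 27.2 in knockout, and in polysome RNA without drug 46.1 and 107 against 26.3 and 34. The knockout arrays were the lower ones in all these pairs of groups. Stellate, endothelial and immune cells keep the gene under albumin-driven Cre, and the sources used here do not say whether the probe set lies in the deleted part.

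Knockout and wild-type liver differed in 849 of 12148 genes, 6.99%, by limma's test at an adjusted p under 0.05. The knockout was lower in 762 of them (6.27%) and higher in 87 (0.716%). Of the lower genes 668 differed by more than 2-fold and 54 by more than 4-fold, and of the higher genes 44 and 4. In all 849 the genotypes did not overlap, where 29.9% of all genes were higher and 33.2% lower without overlap. The median difference over all genes was -0.03 on the log2 scale. The lower genes had a median signal of 307 in wild-type against 107 in knockout, and the higher genes 412 and 920. At an unadjusted p under 0.05 there were 958 higher and 1990 lower genes, where chance would give 607 in all. Leaving out any 1 of the 4 arrays, which leaves 1 array in a group, ended every call or nearly every call. All 849 kept their sign, but without overlap between the genotypes this outcome was fixed in advance, and nothing is read from it. Where a called gene had several probe sets above the filter, all had the sign of the one used for 440 of 508 lower genes and 32 of 41 higher genes.

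**Figure D2:**
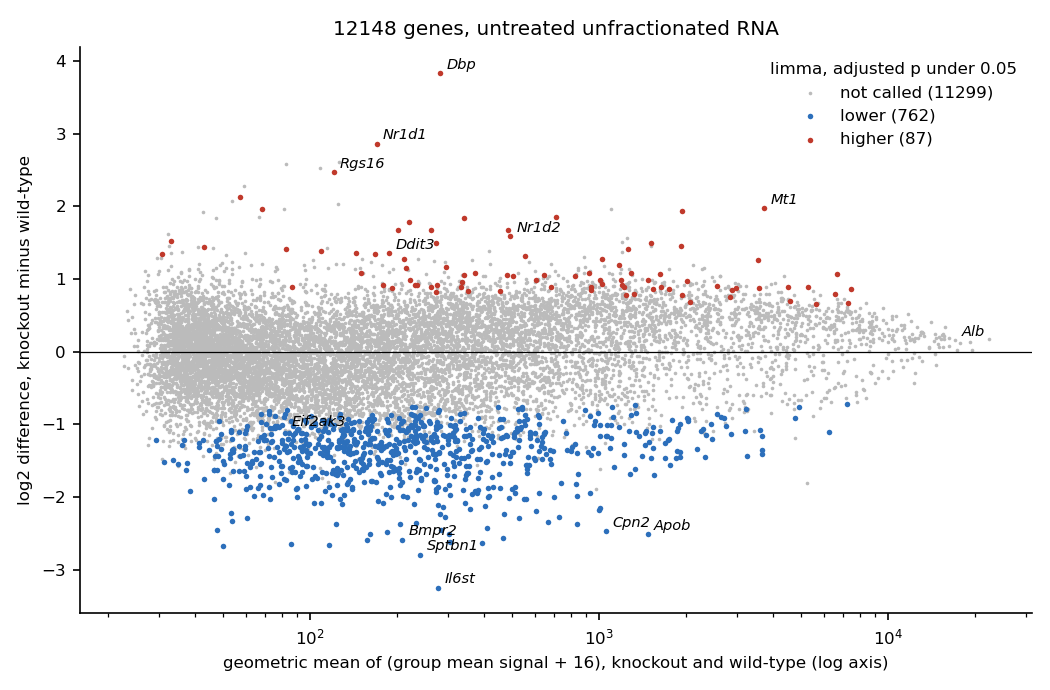
Log2 difference of knockout minus wild-type in untreated unfractionated RNA against mean signal (log axis) for 12148 genes, each point a gene. Blue points are the 762 genes called lower and red points the 87 called higher by limma, and grey points the rest. Dbp has the highest value of the genes called and Il6st the lowest.

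The 3 largest decreases above a signal of 15.1 were those of Il6st, Sptbn1 and Fads6. Il6st encodes gp130, the shared signalling subunit of the interleukin-6 receptor family. It read 845 and 817 in wild-type and 90.4 and 59.0 in knockout liver, a fall of 11.1-fold in mean signal (-3.25 ± 0.56 log2, SE, limma adjusted p = 0.00829). Sptbn1, a spectrin of the membrane skeleton, read 643 and 591 against 71.4 and 79.5 (-2.79 log2). Hipk2, a nuclear kinase, read 344 and 399 against 54.2 and 42.3 (-2.60). These genes were picked for large differences without overlap, so the gap between the groups follows from that choice. The transporters Slco2a1, which takes up prostaglandins, Abcc2, which exports conjugated bilirubin into bile, and Slc22a23 had differences of -2.62, -2.51 and -2.50 on the log2 scale and were called lower. Apob, the structural protein of very low density lipoprotein, read 2890.4 and 4159.7 against 615 and 573 (-2.51 ± 0.50, adjusted p = 0.0108), and Cpn2, a carboxypeptidase subunit of plasma, 2355 and 2602 against 448 and 419 (-2.47 ± 0.42, adjusted p = 0.00829). Of the rest of the 14 largest, H6pd supplies NADPH inside the ER (-2.57 log2), Fads6 belongs to the fatty acid desaturases (-2.64), Klf12 is a repressor of transcription (-2.45), Marveld1 is a membrane protein (-2.48), Cldn1 is a tight junction claudin (-2.42) and Bmpr2 a receptor for bone morphogenetic proteins (-2.59). The lowest p-values among the decreases belonged to Susd6, Wwc2 and Galnt4, each at a limma adjusted p of 0.00787. Wwc2, of a family that acts on the Hippo pathway, read 105 and 115 in wild-type and 20.3 and 18.3 in knockout liver (-1.84 ± 0.27). Galnt4, which starts O-linked glycosylation, read 182 and 192 against 52.3 and 43.1 (-1.68 ± 0.25). Susd6 and the 3 genes with the largest differences among those with a signal no higher than 15.1 on some array are given by signal only. Susd6 read 122 and 112 in wild-type and 7.65 and 15.5 in knockout, Hectd4 114 and 105 against 2.54 and 4.93, Zhx3 262 and 248 against 59.6 and 8.30 and Itih5 183 and 212 against 11.9 and 25.4. Of 4 Zhx3 probe sets 3 had the same sign.

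**Figure D3:**
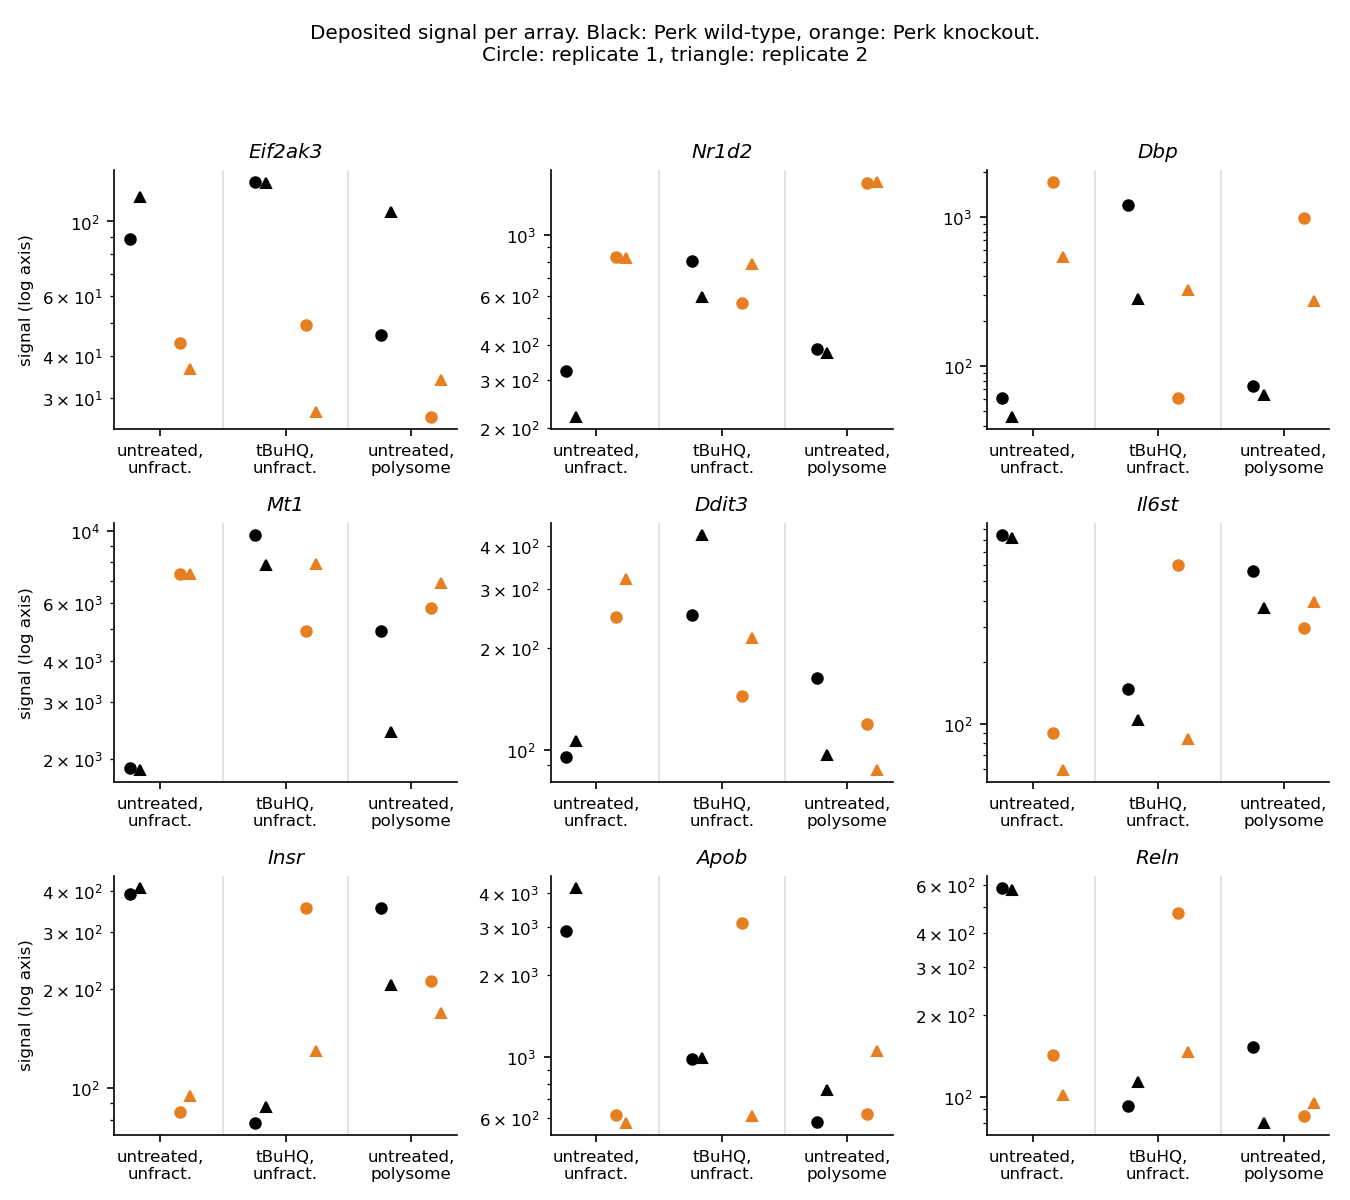
Deposited signal of 9 genes on each unfractionated and untreated polysome array (log axes, each with its own range), with wild-type in black, knockout in orange, the first replicate as a circle and the second as a triangle. In untreated unfractionated RNA the genotypes do not overlap for any of the 9. The first knockout array with tBuHQ lies near the untreated wild-type arrays for Il6st, Insr, Apob and Reln.

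Hormone, cytokine and growth factor receptors and their adaptors were the list with the most genes called. Of 43 measured members 18 (41.9%) fell, where 6.27% of all genes were called lower and 0.716% higher. None rose and 42 had a negative difference (51.7% of all genes did), with a median of -0.94 log2 against -0.03 over all genes. Insr, the insulin receptor, read 393 and 408 in wild-type and 84.4 and 94.5 in knockout (-1.98 ± 0.35 log2, SE, limma adjusted p = 0.00852). Bmpr2 read 421 and 568 against 64.8 and 71.8 (-2.59 ± 0.43, adjusted p = 0.00829), and Tgfbr1, a kinase receptor for TGF beta, 205 and 229 against 54.0 and 69.0 (-1.59 ± 0.29, adjusted p = 0.00877). The genotypes did not overlap for any of them, which held for every gene called and adds nothing to the calls. The other members that fell included the receptors for epidermal growth factor (Egfr), hepatocyte growth factor (Met) and growth hormone (Ghr), the insulin receptor substrate Irs1, Tgfbr2, Fgfr2, Fgfr3, Notch2, Lrp1 and Lrp6. Igf1, the secreted growth factor that growth hormone induces in liver, read 6223 and 6200.0 against 6391 and 4981 and did not pass (adjusted p = 0.702). The other 3 Igf1 probe sets, which are dimmer and were not the ones tested, had mean signals of 2971, 3464 and 2758 in wild-type and 1404, 615 and 558 in knockout (-1.07, -2.45 and -2.32 log2), so the probe sets of this gene differ in the size of their difference. Cytoskeleton, junction and scaffold genes gave 14 that fell of 42 (33.3%), with a median of -0.69. Ptprf, a receptor phosphatase at cell contacts, read 970.5 and 1028 in wild-type and 198 and 201 in knockout (-2.24 ± 0.38, adjusted p = 0.00829). Cldn2, a claudin of pericentral hepatocytes, read 989 and 1243 against 418 and 361 (-1.47 ± 0.28, adjusted p = 0.00878). Cdh1 (E-cadherin), Cdh2, Itgb1, the nonmuscle myosins Myh9 and Myh10 and the linker Plec were also among those that fell.

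**Figure D4:**
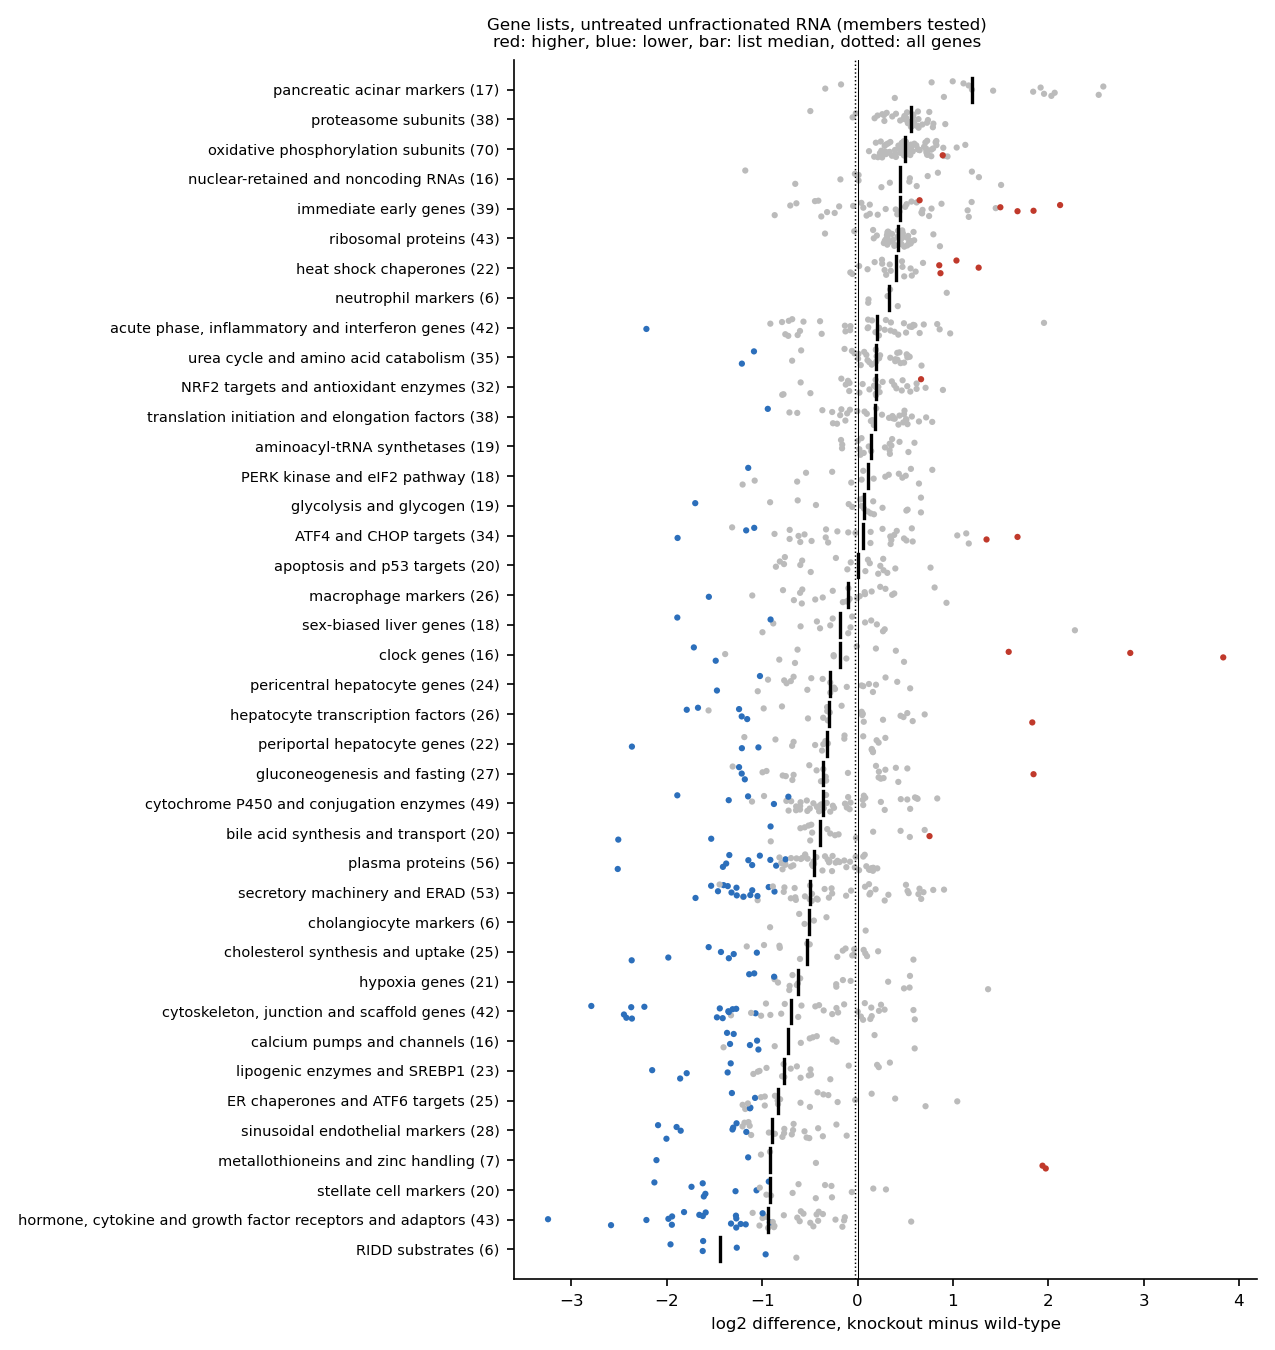
Log2 difference of knockout minus wild-type for the members of each list with at least 6 measured members (each point a gene, number tested in brackets), with red for called higher, blue for called lower, grey for not called, a bar at the list's median and a dotted line at the median of all genes, -0.03. Receptors, stellate, endothelial and ER lists lie to the left, and oxidative phosphorylation, ribosomal and proteasome lists form narrow clouds to the right with 1 called gene among them.

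Sensors and targets of the unfolded protein response are to be read beside the 6.99% of all genes called, 6.27% lower and 0.716% higher. In the list of PERK, the other eIF2 kinases, eIF2 and its phosphatases, 1 of 18 measured members (5.56%) was called, near the share of all genes. It was Ppp1r15b, the constitutive partner of the eIF2 phosphatase, which fell from 509 and 671 to 336 and 193 (-1.15 ± 0.33 log2, SE, limma adjusted p = 0.0493). Among 34 targets of ATF4 and CHOP, 2 rose (5.88%) and 3 fell (8.82%), with a median of 0.06. Ddit3, the gene for CHOP, read 95.4 and 107 in wild-type and 248 and 321 in knockout (1.35 ± 0.33, adjusted p = 0.0249), and both knockout arrays were above both wild-type arrays. Atf4 itself read 1171 and 1201 against 1364 and 1247 (0.14 ± 0.26, adjusted p = 0.782). Asns, asparagine synthetase, with a difference of 0.35 ± 0.47, Trib3, a pseudokinase that restrains ATF4 and CHOP, with 0.57 ± 0.33, and Ppp1r15a (GADD34), the inducible phosphatase partner, with 0.56 ± 0.49 did not pass (adjusted p = 0.684, 0.308 and 0.51). The aminoacyl-tRNA synthetases, many of which ATF4 raises, held no called gene among 19 (median 0.14). The members of the list that fell were Ern1, which encodes IRE1 (463 and 558 against 133 and 119, -1.89 ± 0.38, adjusted p = 0.0109), the amino acid transporter Slc38a2 (-1.17) and Vegfa (-1.08). Of 3 Slc38a2 probe sets 2 had the same sign. Gadd45a, a DNA damage and stress gene, rose from 258 and 251 to 873 and 827 (1.68 ± 0.46, adjusted p = 0.0402).

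ER chaperones and ATF6 targets included 4 genes that fell (16%, against 6.27% of all genes) and none that rose among 25, with a median of -0.83. Calr, a calcium-binding chaperone, read 4132 and 4316 in wild-type and 1892 and 1954 in knockout (-1.13 ± 0.26 log2, limma adjusted p = 0.0199). Its membrane relative Canx read 2122 and 2104 against 924 and 999 (-1.12 ± 0.29, adjusted p = 0.0321), and the disulfide isomerase P4hb 5306 and 5134 against 2636 and 2314 (-1.07 ± 0.27, adjusted p = 0.0298). All of these were about 2-fold lower, and as in every called gene the genotypes did not overlap. The best-known chaperone of the list, Hspa5 (BiP), read 5039 and 5518 against 4914 and 5468, so the genotypes overlapped (-0.02 ± 0.25, adjusted p = 0.962). Its 3 probe sets did not agree in sign. Herpud1, a component of ER-associated degradation, read 2939 and 3035 against 7586 and 5044 (1.05 ± 0.31) and missed the threshold at an adjusted p of 0.0558, and Xbp1 had a difference of -0.42 ± 0.31 (adjusted p = 0.435). Of 53 genes for entry into the ER, glycosylation, degradation and export, 14 (26.4%) fell and none rose (median -0.50). Edem3, a mannosidase that marks proteins for degradation, read 331 and 272 against 83.2 and 79.8 (-1.70 log2). The cargo receptors Tmed10 and Surf4 had differences of -1.40 and -1.54, and Stt3b, a catalytic subunit of the oligosaccharyltransferase, -1.36. The translocon subunits Sec61a1, Sec63, Ssr1 and Ssr3 were also called lower. Among 6 measured genes known as substrates of IRE1's RNase, 5 fell, led by Sparc, a matrix protein of non-hepatocytes (698 and 696 against 178 and 156, -1.96 ± 0.35, adjusted p = 0.00852), and Tapbp, a chaperone for MHC class I (963 and 969 against 315 and 292, -1.62 ± 0.29, adjusted p = 0.00852). Of 16 calcium pumps and channels 6 fell: the ER calcium sensors Stim1 and Stim2 (-1.30 and -1.37), the ER pump Atp2a2 (-1.04), the release channel Itpr2 (-1.05), Calu (-1.34) and Calr.

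In the lipogenic and cholesterol lists the called genes were lower. Of 23 lipogenic genes 5 (21.7%, against 6.27% of all genes) fell and none rose (median -0.77). Gpam, the first enzyme of glycerolipid synthesis in mitochondria, read 1911 and 2312 in wild-type and 444 and 477 in knockout (-2.15 ± 0.36 log2, SE, limma adjusted p = 0.00829). Srebf1, the regulator of fatty acid synthesis, read 2192 and 2543 against 1237 and 697 (-1.33 ± 0.34, adjusted p = 0.0328), and Elovl6, Fads1 and Acacb were lower (-1.79, -1.36 and -1.86). Fatty acid synthase, Fasn, read 2269 and 2289 against 1393 and 883 and, without overlap between the genotypes, missed the threshold (-1.03 ± 0.34, adjusted p = 0.0827). Of 25 genes of cholesterol synthesis, uptake and efflux 7 (28%) fell and none rose (median -0.53). They were the efflux pump Abca1 (1689 and 2072 against 312 and 391, -2.37 ± 0.41, adjusted p = 0.00829), the SREBP escort Scap (-1.56) and the synthesis enzymes Dhcr7 (-1.98), Cyp51 (-1.35), Lss, Msmo1 and Hsd17b7. In bile acid synthesis and transport 3 of 20 fell, Abcc2, Abcc3 and Slco1a1, and 1 rose, Baat, which conjugates bile acids to taurine (2173 and 2166 against 3344 and 4034, 0.76 ± 0.20, adjusted p = 0.0335). In the list for gluconeogenesis and fasting 3 of 27 fell, the nuclear receptors Hnf4a (-1.21) and Ppara (-1.24) and the coactivator Crebbp (-1.18), and 1 rose, Gadd45b. None of the called members there is an enzyme of glucose synthesis. Ppp1r3b, which brings protein phosphatase 1 to glycogen, was the 1 called member of 19 glycolysis and glycogen genes (2452 and 3111 against 838 and 838, -1.70 ± 0.29, adjusted p = 0.00829).

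Secreted plasma proteins divided by gene. Of 56 measured, 10 (17.9%, against 6.27% of all genes) fell and none rose (median -0.46). C8a, a complement component, read 5703 and 6232 in wild-type and 2125 and 2342 in knockout (-1.41 ± 0.29 log2, limma adjusted p = 0.0118), and Serpinf2, the plasmin inhibitor, 3337 and 3591 against 1373 and 1334 (-1.34 ± 0.26, adjusted p = 0.0097). Igfals, Itih1, Itih3, Cfb, Cp, F5 and Serpind1 fell with them. Albumin itself, at 16039 and 16222 against 19137 and 17021, did not pass (0.16 ± 0.16, adjusted p = 0.561). Of the other 6 defining hepatocyte markers none was called. Ttr (15410.1 and 16074 against 16942 and 16244) was slightly higher in knockout, and Apoa1 (17164 and 17219 against 18013 and 16783), Serpina1b (14391 and 15851 against 16614 and 14921) and Cyp2e1 (14208 and 15113 against 15716 and 14848) overlapped. Cps1 (10019 and 9782 against 6402 and 5905, -0.69 ± 0.21, adjusted p = 0.0673) and Cyp2f2 (10622 and 11993 against 8592 and 9012, -0.36 ± 0.17, adjusted p = 0.2) were lower in both knockout arrays. Of 49 cytochrome P450 and conjugation genes 5 (10.2%) fell (median -0.36), among them Cyp4v3 (-1.35), Ugt2b34 (-1.15) and Ugt2b1 (-0.73), and Cyp2c37 read 31.8 and 9.34 against 46.5 and 25.7 with overlap. Of 26 hepatocyte transcription factors 5 fell, Hnf4a (2601 and 2539 against 1437 and 838), Ppara, Rxra, Onecut2 and the estrogen receptor Esr1, and 1 rose, the repressor Bcl6. Several lists had 1 to 3 calls, to be read against the 6.27% of all genes called lower. Pericentral genes gave 2 that fell of 24 (8.33%) and periportal genes 3 of 22 (13.6%), with medians of -0.29 and -0.32. Urea cycle and amino acid genes gave 2 of 35 that fell (5.71%), Ass1 and Sardh, acute phase and interferon genes 1 of 42 (Il1r1), sex-biased liver genes 2 of 18 (Slco1a1 and Ugt2b38) and hypoxia genes 3 of 21 (Slc2a1, Pdk1 and Vegfa). Of 3 Pdk1 probe sets 2 had the same sign.

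Without drug, stellate and sinusoidal endothelial markers were lower in knockout, and markers of the other cell types apart from hepatocytes were called in 1 gene. In RNA of whole tissue, fewer cells of a type and less RNA per cell cannot be told apart. Of 20 measured stellate cell markers 8 (40%, against 6.27% of all genes) fell and none rose (median -0.92). Reln, a secreted glycoprotein of stellate cells, read 587 and 578 in wild-type and 143 and 102 in knockout (-2.13 ± 0.41 log2, limma adjusted p = 0.00965), and Lrat, which stores retinol as its ester, 184 and 169 against 49.5 and 34.6 (-1.74 ± 0.30, adjusted p = 0.00829). The summed signal of the 23 stellate markers on the array was 6721 to 7119 in wild-type and 3217 to 3221 in knockout. Of 28 sinusoidal endothelial markers all had a negative difference and 8 (28.6%) fell (median -0.90). Ptprb, an endothelial phosphatase, read 460.1 and 446 against 116 and 75.9 (-2.09 ± 0.44, adjusted p = 0.0134), the water channel Aqp1 365 and 469 against 107 and 77.1 (-2.0 ± 0.31, adjusted p = 0.00829) and the receptor Flt4 169 and 165 against 40.1 and 29.7 (-1.85 ± 0.30, adjusted p = 0.00829). The defining markers Kdr (139 and 176 against 55.8 and 51.5) and Stab1 (127 and 107 against 41.4 and 37.1) were among those that fell, and the endothelial sum was 6339 to 7828 against 3201 to 3271. With tBuHQ these decreases did not repeat, with medians of 0.37 for stellate and 0.41 for endothelial markers. The endothelial sum was then 3643 and 3931 in wild-type and 6541 and 3828 in knockout, and the stellate sum 5806 and 5748 against 7155 and 5230. Macrophage markers had 1 that fell of 26, Csf1r (872 and 1039 against 253 and 385, -1.56 ± 0.41, adjusted p = 0.034). Clec4f (510.3 and 556 against 389 and 432) and Cd5l (683 and 681 against 726 and 570.3), which define Kupffer cells, were not called, and the macrophage sum was 8726 to 8764 against 7460.5 to 7467. No cholangiocyte, lymphocyte, neutrophil, erythroid or adipocyte marker was called, and the 6 neutrophil markers measured were all positive (median 0.33). The lymphocyte markers Cd3e and Cd79a stayed below 15.1 on all 4 arrays. The part of these cells in the decreases above was not tested.

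Dbp and Nr1d1, both of the circadian clock list, had the largest increases, while the list as a whole did not move one way: of 16 clock genes 3 rose and 2 fell, with a median of -0.18. The core loop of the clock pairs CLOCK and BMAL1, which act at the DNA element CACGTG (E-box), with repressors, among them the nuclear receptors Nr1d1 and Nr1d2 (REV-ERB alpha and beta). Dbp, a transcription factor whose RNA swings widely over the day in liver, read 60.8 and 45.3 in wild-type and 1719 and 538 in knockout (3.84 ± 0.76 log2, SE, limma adjusted p = 0.0108). Both knockout values lay far above the wild-type values, and the first was well above the second. Nr1d1 read 47.6 and 45.5 against 520.1 and 369 (2.86 ± 0.55, adjusted p = 0.00938), and Nr1d2 322 and 219 against 833 and 826 (1.59 ± 0.25, adjusted p = 0.00829), the lowest p of the increases. These were the 3 clock genes that rose (18.8%, against 0.716% of all genes). The 2 that fell were the activator Rora (489.7 and 615 against 138 and 175, -1.72 ± 0.34, adjusted p = 0.0108) and Clock (-1.49). The labels used here give no hour of day for the perfusions. Rgs16, a regulator of G protein signalling, read 25.6 and 45.3 against 229 and 303 (2.47 ± 0.50, adjusted p = 0.0118), Bcl6 184 and 146 against 552 and 706 (1.83 ± 0.46, adjusted p = 0.0286) and Txnip, a thioredoxin inhibitor raised by glucose, 1166 and 1124 against 3258 and 3062 (1.45 ± 0.30, adjusted p = 0.0121).

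Members of the metallothionein, immediate early and heat shock lists rose. Mt1 and Mt2, the metallothioneins, small proteins that bind zinc and copper and rise with metals and glucocorticoids, read 1885 and 1848 against 7373 and 7387 and 717 and 1246 against 3023 and 4465 (1.97 ± 0.41 and 1.94 ± 0.41 log2, limma adjusted p = 0.0125 and 0.0136). The zinc exporters Slc30a1 and Slc30a10 fell, Slc30a1 from 534 and 584 to 104 and 132 (-2.11 ± 0.37, adjusted p = 0.00829), so of 7 genes of zinc handling 2 rose and 2 fell. Gadd45b read 303 and 415 against 1449.6 and 1199 (1.85 ± 0.53, adjusted p = 0.0494) and Klf10, an early target of TGF beta, 129 and 163 against 409 and 471 (1.50 ± 0.38, adjusted p = 0.0311). Of 39 immediate early genes 5 rose (12.8%, against 0.716% of all genes) and none fell (median 0.44): Gadd45a, Gadd45b, Klf10, Zfp36, which destabilises cytokine RNA, and Maff, which read 6.88 and 16.1 in wild-type and 115 and 90.3 in knockout. Of 22 heat shock chaperones 4 (18.2%) rose (median 0.41), Hspa1b (746 and 539 against 1851 and 1303, 1.27 ± 0.27, adjusted p = 0.0132), Hspa8 (0.86), Hsph1 (1.04) and Dnaja1 (0.87). Hspa8 had 3 of 4 probe sets with the same sign. Txn1, thioredoxin, was the 1 called member of 32 NRF2 targets and antioxidant genes (5793 and 5684 against 9516 and 8736, 0.67 ± 0.17, adjusted p = 0.0335). Of the remaining largest increases, Gch1 makes tetrahydrobiopterin (1088 and 698 against 2712 and 2282), Wdr53 is a WD repeat protein (141 and 119 against 542 and 368) and Cnmd encodes chondromodulin (121 and 74.4 against 388 and 295). The DNA repair dioxygenases Alkbh2 (36.9 and 32.5 against 106 and 131) and Alkbh3 (363 and 310.2 against 863 and 850.4) shared the second lowest p of the increases, an adjusted p of 0.00887. Ppp1r3g (28.8 and 9.62 against 98.8 and 134) and Ubqlnl (2.14 and 4.89 against 40.9 and 38.9) had a wild-type signal under 15.1 and are given without a fold.

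The promoters of 4 of the 10 largest increases are shown because Mt1 and Mt2 lie side by side and rose by nearly the same amount, and because Gadd45b and Bcl6 were the only ones of the 10 with an E-box in the 250 bases before the annotated start. The sequences are RefSeq's on GRCm38.p6, 5′ to 3′ on the strand of the gene, with capitals at the metal response element (TGCACNC or TGCGCNC, either strand) in the metallothioneins and at the E-box in the others.
Mt1 (chr8:94178839-94179088, plus strand): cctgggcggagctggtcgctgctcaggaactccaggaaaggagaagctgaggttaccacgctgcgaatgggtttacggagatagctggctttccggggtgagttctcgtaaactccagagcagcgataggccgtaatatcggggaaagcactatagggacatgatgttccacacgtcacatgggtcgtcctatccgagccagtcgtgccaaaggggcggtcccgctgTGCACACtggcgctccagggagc
Mt2 (chr8:94172368-94172617, plus strand): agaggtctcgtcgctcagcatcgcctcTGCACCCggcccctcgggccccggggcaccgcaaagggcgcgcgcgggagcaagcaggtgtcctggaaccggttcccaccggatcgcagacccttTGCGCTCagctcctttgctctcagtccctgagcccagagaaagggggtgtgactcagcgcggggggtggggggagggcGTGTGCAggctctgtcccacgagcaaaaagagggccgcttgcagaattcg
Gadd45b (chr10:80929841-80930090, plus strand): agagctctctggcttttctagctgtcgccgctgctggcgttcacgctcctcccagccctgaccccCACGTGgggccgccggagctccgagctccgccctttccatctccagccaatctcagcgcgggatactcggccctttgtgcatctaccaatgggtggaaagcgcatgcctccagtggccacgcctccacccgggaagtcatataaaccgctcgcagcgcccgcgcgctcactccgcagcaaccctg
Bcl6 (chr16:23988853-23989102, minus strand): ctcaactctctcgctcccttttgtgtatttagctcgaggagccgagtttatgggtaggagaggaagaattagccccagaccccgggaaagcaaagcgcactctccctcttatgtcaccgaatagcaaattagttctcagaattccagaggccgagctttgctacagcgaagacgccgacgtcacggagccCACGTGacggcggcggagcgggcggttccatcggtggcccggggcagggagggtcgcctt
Within the 250 bases shown the metal response element had 1 match before Mt1 and 3 before Mt2. Bases beyond the annotated start were not searched, so these are not counts for the whole promoter. Of the first windows of 9828 tested genes 29.6% held it (21.4% of all 32851 windows), as did 35.2% of those of the genes called higher and 5 of the 10 largest increases, so its presence is common. The E-box was in 8.39% of the tested genes (6.02% of all windows), in 12.7% of those called higher and in 2 of the 10 largest increases, and in none of the 10 largest decreases. Dbp and Nr1d1, both among the 10 largest increases, had no E-box within these 250 bases of the first window. The D-box TTANGTAA, bound by DBP (2.06% of all windows), was in none of the 10 largest increases and in 1 of the 10 largest decreases, H6pd. The ATF4 element TGATGNAA (3.45%) was in none and in 1, Slco2a1, and the ER stress element (CCAAT and CCACG with 9 bases between them, 0.113%) was in none of the 20. Bcl6 has 2 annotated windows, of which the first listed is shown, and the second holds no E-box.

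Some lists had small differences that ran the same way in nearly every member. Of 70 nuclear-encoded subunits of oxidative phosphorylation all 70 had a positive difference, by 0.12 to 1.13 log2 (median 0.50), where 48.3% of all genes were positive and 51.7% negative. In 69 the genotypes did not overlap, where 29.9% of all genes were higher without overlap. Only Atp5j passed limma's test (4539 and 3197 against 7731 and 6505, 0.89 ± 0.25, adjusted p = 0.045). Ribosomal proteins had 41 of 43 positive (median 0.42) and proteasome subunits 35 of 38 (median 0.56), with no call in either. After quantile normalization over all 16 arrays these 3 medians were 0.27, 0.20 and 0.35, beside 0.10 for all genes. The 2 scalings thus differ by 0.13 in the median of all genes. After quantile normalization the 3 lists lay closer to the median of all genes, which had itself turned positive. The counts of positive members and of genotypes without overlap given here are those of the deposited scaling only. Of 38 translation factors 1 fell, Rptor (140.3 and 132 against 61.7 and 64.9), the mTORC1 scaffold. Of 17 pancreatic acinar markers 15 were positive (median 1.20) and none was called. Their summed signal over 20 markers was 7579 on the first knockout array, 2977 on the second and 1786 to 2019 on the wild-type arrays, and Ctrb1, a chymotrypsinogen, read 498 and 7.66 in knockout and 58.0 and 6.88 in wild-type. The part of this RNA in other differences was not tested. Nuclear-retained and noncoding RNAs had no call among 16, with Malat1 at 921 and 1401 against 387 and 1316, and neither had 20 apoptosis and p53 targets.

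Polysome RNA of untreated livers was measured on 4 arrays that are not in the comparison itself but enter its test through the spread. They may also hold RNA of the same livers. A small spread on these arrays favours a call, so the shares without overlap below are not independent of the calls. Cpa1 read 283 on the first untreated knockout array of unfractionated RNA and 291 on the first of polysome RNA, and 3.16 and 14.9 on the second. The deviations of same-numbered arrays correlated at 0.33 between the fractions in untreated knockout and at 0.083 in untreated wild-type. The polysome values are therefore not given as those of separate animals. Nr1d2 was the 1 gene that passed limma's test there, 0.00823% of 12148 (388 and 375 against 1543 and 1550.4, 1.97 ± 0.25 log2, adjusted p = 0.0129). At an unadjusted p under 0.05 there were 805. Of the 87 genes called higher in unfractionated RNA, 71 (81.6%) were also higher in polysome RNA (51.4% of all genes were), with a median of 0.39. In 57 (65.5%) the genotypes did not overlap, where 18.5% of all genes were higher without overlap. Dbp read 74.3 and 64.4 in wild-type and 988 and 273 in knockout polysomes (2.66 ± 0.76, adjusted p = 0.447), Nr1d1 24.1 and 63.2 against 442 and 188 and Rgs16 22.0 and 17.9 against 201 and 119. For these 3 the signals were of the same order in both fractions and the genotypes did not overlap. Gadd45b read 194 and 337 against 1192 and 899.8, Mt1 4947 and 2423 against 5801 and 6904 and Ddit3 163 and 96.3 against 119.5 and 87.0. Ddit3 overlapped between the genotypes there. Of the 762 genes called lower, 534 (70.1%) were lower in polysome RNA (48.6% of all genes were), with a median of -0.18 against -1.32 in unfractionated RNA. In 278 (36.5%) the genotypes did not overlap, where 18.5% of all genes were lower without overlap. Il6st read 563 and 369.6 against 295 and 398 in polysomes and Bmpr2 611 and 292 against 344 and 383. Apob, at 579 and 757 against 622 and 1049, overlapped between the genotypes. Gpam (1719.7 and 1071 against 676 and 759), Cyp51 (535 and 593 against 281 and 270.3) and Rpn1, an oligosaccharyltransferase subunit (842 and 798 against 348 and 403), kept a decrease without overlap. In the 2 cell type lists the polysome medians were -0.19 for stellate and 0.02 for endothelial markers. Tested directly, no gene had a genotype difference that differed between the fractions in limma's test (0%), though 1440 had an unadjusted p under 0.05 (0 and 1516 with the fractions paired by array number), and 47 passed when the first knockout array with tBuHQ was left out of the fit.

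**Figure D5:**
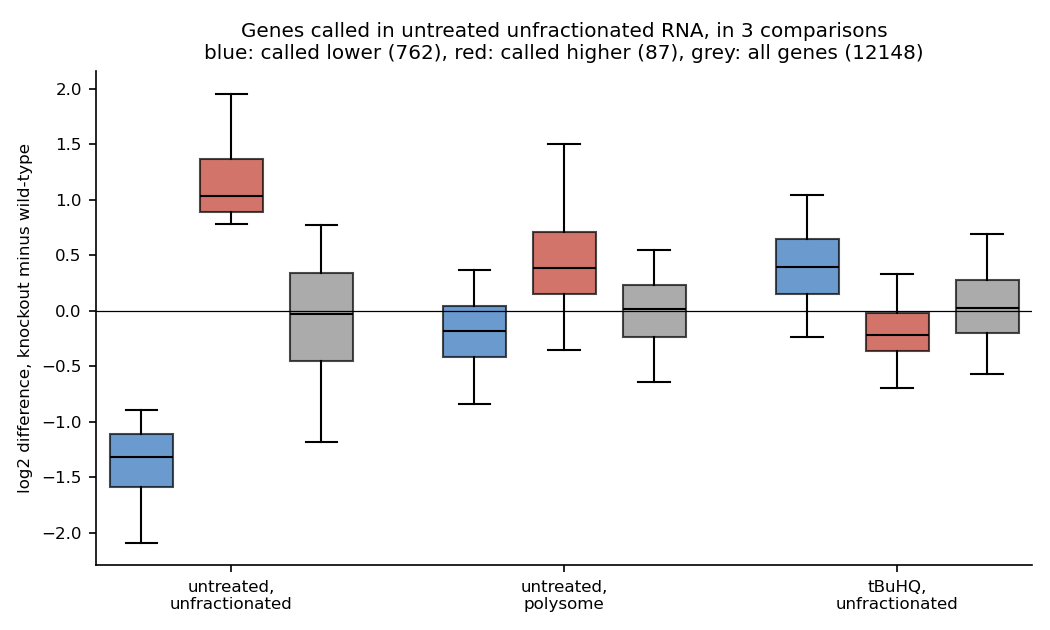
Log2 difference of knockout minus wild-type in untreated unfractionated RNA (which chose the genes), untreated polysome RNA and unfractionated RNA with tBuHQ, for the 762 genes called lower (blue), the 87 called higher (red) and all 12148 (grey). Boxes span the quartiles with a line at the median and whiskers reach the 5th and 95th percentiles over genes. The medians of the lower genes are -1.32, -0.18 and 0.40, and those of the higher genes 1.04, 0.39 and -0.22.

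In unfractionated RNA of livers perfused with tBuHQ the genotype differences did not repeat. Cyp2c37, a cytochrome P450, was the 1 gene called (0.00823%), at 1883 and 1708 in wild-type and 44.7 and 54.2 in knockout (-4.79 ± 0.53 log2, limma adjusted p = 0.00228), and 841 genes had an unadjusted p under 0.05. Of the 762 genes lower in untreated knockout, 110 (14.4%) were lower with tBuHQ (46.9% of all genes were), and of the 87 higher genes 20 (23.0%) were higher (53.1% of all genes). Il6st read 148 and 104 in wild-type and 603 and 83.7 in knockout with tBuHQ, Ptprf 187 and 190.2 and 987 and 296, and Sptbn1 71.2 and 89.0 and 508 and 87.0. In each the first knockout array lay nearer the level of untreated wild-type liver, and the other 3 arrays nearer that of untreated knockout liver. This arrangement, in which these 3 arrays (the first treated knockout and both wild-type without drug) lay above the other 5, held for 635 (83.3%) of the 762 lower genes. It held for 51.5% of the 4034 genes that were lower without overlap, called or not, and for 17.1% of all genes. The reverse held for 53 (60.9%) of the 87 higher genes, for 39% of the 3627 genes higher without overlap and for 11.6% of all genes. The calls themselves place both untreated wild-type arrays apart from both untreated knockout arrays, so nothing is read from these shares. These are the 3 arrays with the high 75th percentile signals. Their part in the calls was not tested. Without the first knockout array with tBuHQ, which is not in the comparison itself and enters its test through the spread, 111 genes were higher and 933 lower. The direct test of the difference of differences found 645 genes (5.31%), of which 594 were more negative without tBuHQ and 51 more positive. Unlike the calls without drug, this number fell when the first knockout array with tBuHQ was left out. It also fell without any of the untreated unfractionated arrays. Each omission leaves a single array in a group of this test. Dbp differed by 5.73 ± 1.08 (adjusted p = 0.0101), reading 1200.2 and 284 in wild-type and 61.1 and 325 in knockout with tBuHQ, and Ddit3 by 2.20 ± 0.46 (adjusted p = 0.0157), with 251 and 432 and 144 and 214. For Mt1 the treated values were 9707 and 7832 and 4933 and 7916, so that both untreated wild-type arrays were the low ones among the 8.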

How the data were processed

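RNA of perfused mouse liver was measured on 16 Affymetrix arrays, 2 in each of 8 groups set by the sample titles. The deposited intensity values are linear signals of 45101 probe sets, which the authors had scaled to a 2%-trimmed mean of 150, as the values show. No source used here names the software or gives detection calls. The authors' deposited score table holds z scores of 18697 probe sets on the same arrays, and served as an alternative and as a check of the sample titles.

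By the platform annotation 34958 probe sets carried a single gene symbol, 932 more than 1 and 9211 no symbol. Entrez identifiers served to update 34754 symbols. Signals were turned to log2(signal + 16), which understates differences of dim genes, without further normalization. Probe sets under the 40th percentile of the mean were left out, and the brightest of each gene was kept, which left 12148 genes. The test was limma's (version 3.58.1, R 4.3.3) with lmFit and trended eBayes on 8 group means over all 16 arrays (8 residual and 6.97 prior degrees of freedom), with Benjamini-Hochberg adjustment within a contrast and calls at an adjusted p under 0.05. An exact permutation of 2 against 2 arrays has 6 splits and cannot reach 0.05. The script was tested on simulated data. Each array is a pool of 2 livers, so p-values reflect only the spread among such pools, and the number of arrays limits the precision.

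Genes were named if called without overlap among the 14 largest differences each way above a signal of 15.1, the 3 largest at or below it, the 3 of lowest p each way, up to 4 called members of each of 43 lists, or 20 fixed genes; further called members are named without values or by their difference. Clock, Itpr2, Vegfa and Atp2a2 and the other members listed beyond the 4 were added after their values were seen. The members, the lists and the alternatives were chosen with earlier results of these data known. Promoters are RefSeq's, and 9828 of the 12148 genes had a window. Motifs were searched in the 250 bases before the start, and the metal response element and the pairing of fractions by array number were added after seeing the data.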

Additional observations from a re-analysis of the deposited data

Results flagged for a closer look

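The genotype difference itself differed between livers without and with tBuHQ in 645 genes by limma's interaction test, negative (lower without the drug) in 594 and positive in 51. Values are log2 differences of differences, each with limma's adjusted p under 0.05. Most of the genes below were named for their difference without the drug, which is a part of each value. The sign and size of these values therefore follow in part from that choice. Among the named genes that fell, the values were -4.07 for Il6st, -4.07 for Sptbn1, -3.66 for Fads6, -3.60 for Slco2a1, -4.23 for Hipk2, -3.49 for Bmpr2, -3.61 for H6pd, -2.99 for Apob, -3.27 for Abcc2, -3.32 for Slc22a23, -2.74 for Marveld1, -3.48 for Cpn2, -3.20 for Klf12 and -2.87 for Cldn1. They were -2.95 for Susd6, -2.15 for Wwc2, -2.17 for Galnt4, -2.11 for Srebf1 and -3.69 for Ptprf, and -2.53 for Fasn, which was not called without the drug. Among the genes that rose, the values were 5.73 for Dbp, 2.45 for Mt1, 2.33 for Mt2, 2.36 for Wdr53, 1.64 for Nr1d2, 1.62 for Gch1, 1.70 for Alkbh2 and 2.20 for Ddit3. Cyp2c37, at 5.35, owes its value to the treated wild-type arrays, 1883 and 1708 against 44.7 and 54.2 in treated knockout. A further 52 named list members passed as well. The number was 94 without the first knockout tBuHQ array and 0 without the second untreated wild-type array.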

How the results depend on the processing

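All 849 calls kept their sign under every alternative that used the deposited signals and tested them (the filter at the 60th percentile left 786 of them), but their number moved. The genotypes did not overlap in any called gene. For a given probe set the sign was therefore fixed in advance in all these settings except the quantile normalizations, also where 1 of the 4 arrays was left out. Nothing is read from the kept sign in those settings. Leaving out each of the 4 arrays in turn gave 0 higher genes and 0 to 9 lower ones, 1 to 2 genes called with tBuHQ and 0 to 240 for the difference between treatments. Quantile normalization over all 16 arrays gave 120 higher and 481 lower genes, 2 in polysome RNA, 3 with tBuHQ and 406 for the difference between treatments, and within each fraction 495 lower and 422. Without a filter 49 were higher and 501 lower, and with the filter at the 60th percentile 135 were higher. Fitting the 8 unfractionated arrays gave 581 higher genes, 2 with tBuHQ and 1335 for the difference between treatments, and fitting the 4 arrays alone 1126 higher and 1713 lower. Eif2ak3 kept its difference of -1.08 in these fits and passed at adjusted p = 0.030 and 0.0154, and at 0.0394 without the second wild-type tBuHQ polysome array, whose Gapdh 3′ to 5′ signal ratio was 5.60 (0.735 to 0.859 elsewhere). Without that array 230 genes were higher, 5 were called in polysome RNA, 4 with tBuHQ and 1060 for the difference between treatments. Without the first knockout tBuHQ array these were 0 with tBuHQ, 94 for the difference between treatments and 47 for that between fractions. Without the intensity trend 52 were higher and 2 were called with tBuHQ, as with pseudocounts of 1 and 64. At an adjusted p under 0.01 there were 4 higher and 148 lower genes, 0 in polysome RNA and 95 for the difference between treatments, and with a 2-fold limit 44 higher. The cause of these moves was not tested, apart from the smaller number of arrays or genes that some settings hold by construction. The replicate block gave 70 higher and 704 lower genes and 2 with tBuHQ. The labels give the arrays numbers but no pairing, and the deviations of same-numbered untreated unfractionated arrays correlated at 0.12 between the genotypes. By the column names of the authors' z scores the comparison had 0 higher and 0 lower genes, with 666 at an unadjusted p under 0.05, 0 were called in polysome RNA, 687 with tBuHQ and 427 for the difference between treatments. Of 835 called genes present 159 kept their sign there, because those columns hold the arrays titled with tBuHQ. Single genes were therefore not compared under it, and 93 of the 115 called named genes turned sign. Medians of the clock, macrophage, lymphocyte and glycolysis lists, all within 0.18 of 0, changed sign after quantile normalization. Signals limited the size of some differences: 59 of the 762 lower and 5 of the 87 higher genes had a signal of at most 15.1 on an array of the comparison.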
